A study of Mus musculus with 9 samples.

Results

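The Ly6 genes encode small, cysteine-rich proteins that are mostly held on the cell surface by a lipid (GPI) anchor. The set described here has 7 genes, *Ly6a*, *Ly6c1*, *Ly6c2*, *Ly6d*, *Ly6e*, *Ly6h* and *Ly6k*, and its members were found by their symbol in the annotation of the array platform. Of these 7 genes, 6 had a transcript cluster (the array's unit of measurement, a group of probes for 1 gene), each exactly 1, among 22206 clusters with 19505 distinct gene symbols. *Ly6a* matched no cluster and is not analysed here. The set was chosen around *Ly6d*, selected on its difference between ob/ob and wild-type liver in these same arrays. That difference, and the one between the extract group and wild type, which shares the wild-type arrays, are therefore given for *Ly6d* as a description with no test.

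RNA from whole liver of male mice was measured on Clariom S mouse arrays, 9 in all. The 3 groups held 3 arrays each: wild-type mice (C57BL/6JHamSlc-+/+) given vehicle, ob/ob mice (C57BL/6JHamSlc-ob/ob) given vehicle, and ob/ob mice given VE, an extract of *Vigna umbellata* (rice bean), by gavage (100 mg for each kg of body weight). The ob/ob mice of both groups lack functional leptin and become obese on normal chow. All mice were 6 weeks old at purchase, were acclimatized for 1 week, ate standard chow throughout and were treated for 42 days. Each array was taken as 1 mouse, from the 3 mice per group that the design text gives, and the p-values measure only the spread between these samples. The small number of arrays limits the precision of every value. Hepatocyte markers were above the array background on all 9 arrays for 11 of 11 measured genes.

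Ly6 proteins fold into a compact domain with finger-like loops that is shared with the urokinase receptor and CD59, and most of their genes lie side by side on mouse chromosome 15. *Ly6a* encodes Sca-1, a surface marker of stem and progenitor cells and of endothelium. *Ly6c1* and *Ly6c2* encode the Ly6C antigens, used to sort monocytes and found on endothelium and some T cells. *Ly6d* marks early B lineage cells and stratified epithelia. *Ly6e* is an interferon-inducible gene with broad expression, *Ly6h* is known mainly from brain and *Ly6k* from testis. In bulk liver, fewer cells of a type and less RNA per cell cannot be told apart.

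Values are log2 expression after SST-RMA normalization. As a guide to background, the values of 1412 clusters of olfactory and vomeronasal receptors, genes not known to be active in liver, were taken on each array, and the middle 95% of them is called the receptor range. Its upper end lay between 5.35 and 7.06 on the 9 arrays. The highest ends belonged to wild-type vehicle 3 (7.06) and ob/ob vehicle 3 (6.53), whose interquartile ranges over all clusters were the smallest, 3.01 and 3.26 against 3.36 to 3.85 on the other 7. Results that turn on either array are given with and without it. Differences were tested with limma over all 22206 clusters, and a cluster was called at a Benjamini-Hochberg adjusted p under 0.05.

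*Ly6c1* and *Ly6c2* are close copies. Their promoters are shown because only these 2 members had an entry in the promoter source used, and the other 5 had none. The sequences are RefSeq's (GRCm38.p6, minus strand), from 250 bases before to 50 after the most upstream start, at chr15:75048788-75049087 for *Ly6c1* and chr15:75111922-75112221 for *Ly6c2*. Capitals mark a TATAAA match.
Ly6c1: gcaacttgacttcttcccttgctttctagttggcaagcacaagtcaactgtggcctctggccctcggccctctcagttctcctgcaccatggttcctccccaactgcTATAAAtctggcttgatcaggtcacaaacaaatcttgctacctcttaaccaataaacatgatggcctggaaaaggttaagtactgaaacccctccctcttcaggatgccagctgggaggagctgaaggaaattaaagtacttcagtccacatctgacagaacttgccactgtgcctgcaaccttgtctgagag
Ly6c2: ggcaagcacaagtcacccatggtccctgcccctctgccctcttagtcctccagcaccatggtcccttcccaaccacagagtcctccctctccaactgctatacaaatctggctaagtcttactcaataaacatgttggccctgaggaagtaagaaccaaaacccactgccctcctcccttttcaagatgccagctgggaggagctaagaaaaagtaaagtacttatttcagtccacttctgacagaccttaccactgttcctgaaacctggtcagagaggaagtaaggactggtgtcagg
Over 266 aligned bases the promoters had 208 identical bases, or 78.2%. The match to TATAAA began at position -143 from the start of *Ly6c1*, and *Ly6c2* had no match in its window. Of 32851 promoters of the same length, 13.6% held TATAAA on either strand. An interferon response core, GAAANNGAA, was in 8.56% of them and a gamma-activated site, TTCNNNGAA, in 8.3%. Neither was found in these windows of *Ly6c1* and *Ly6c2*, on either strand. The 3 motifs were searched as letters, and a match is not a measured site.

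*Ly6d* read at the background level in wild-type liver, high in ob/ob liver, and in between, with a wide spread, in ob/ob mice given the extract. In wild-type vehicle its log2 values were 4.09, 4.10 and 3.38. In ob/ob vehicle they were 11.99, 12.25 and 12.68, and in ob/ob extract 11.84, 9.60 and 7.94. The 3 groups did not overlap: each ob/ob vehicle array was above each extract array, and each extract array was above each wild-type array. The wild-type arrays were all inside the receptor range, while all 6 ob/ob arrays were above it. The mean was 3.86 ± 0.41 (SD, n = 3) in wild type, 12.31 ± 0.35 (SD, n = 3) in ob/ob vehicle and 9.79 ± 1.96 (SD, n = 3) in ob/ob extract.

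The difference of *Ly6d* between ob/ob vehicle and wild type was 8.45 on the log2 scale (SE 0.75). Because the wild-type values lie in the background range, this size is at best a lower bound. It ran from 8.21 to 8.61 when each array was left out in turn. Between ob/ob extract and wild type the difference was 5.94 (SE 0.75), with the lowest extract array 3.84 above the highest wild-type array. Both SEs come from a spread shared by all 3 groups, to which the extract group (SD 1.96) adds most.

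Between ob/ob extract and ob/ob vehicle, *Ly6d* differed by -2.51 (SE 0.75, 95% interval -4.18 to -0.85). It was lower in 3 of 3 extract arrays, but the highest extract array lay only 0.15 below the lowest vehicle array, and the extract arrays spanned 3.90. The interval rests on the same shared spread, not on that of the extract arrays alone. The unadjusted p in limma was 0.00709 and the Benjamini-Hochberg adjusted p was 0.707, so the difference did not pass the test. The vehicle arrays used here also served to choose the gene. Leaving out extract 1 gave -3.54 and leaving out extract 3 gave -1.59.

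**Figure D1:**
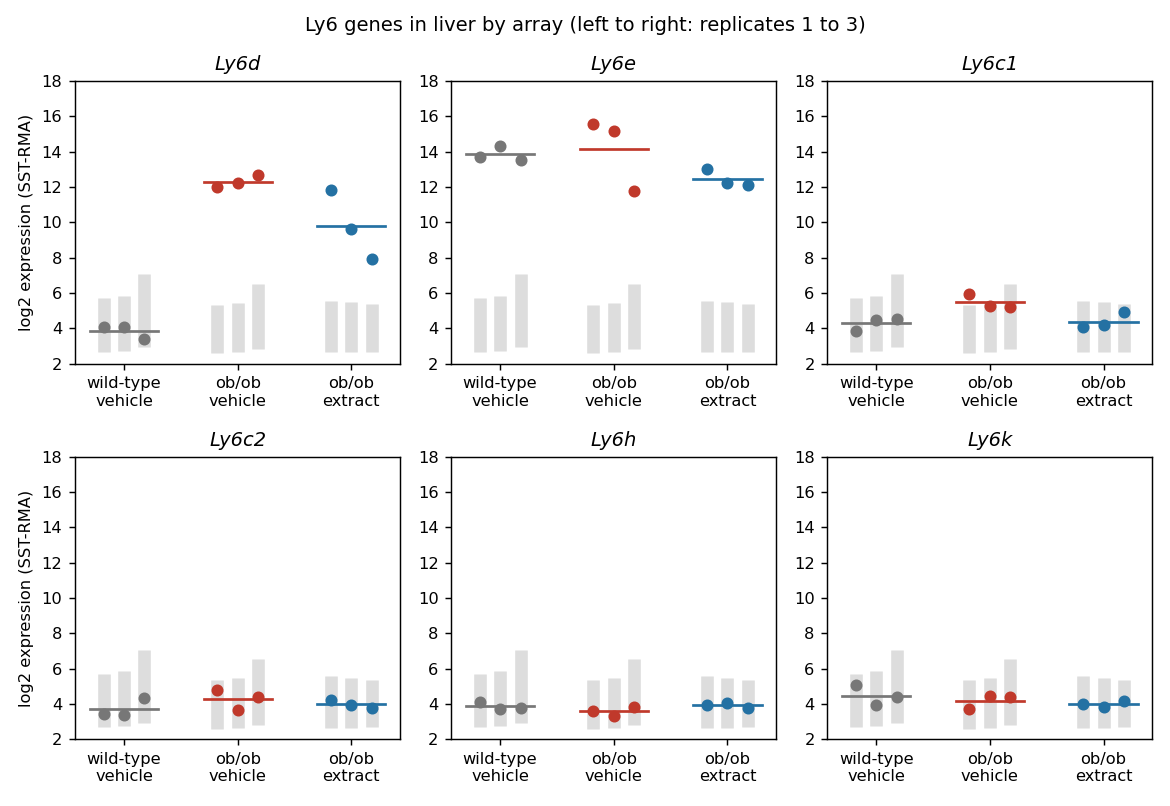
Log2 expression of the 6 measured Ly6 genes on each of 9 arrays, grouped by treatment, where points are arrays, lines are group means (n = 3) and grey bars are the receptor range of that array. Only *Ly6d* and *Ly6e* reach far above the bars, *Ly6d* on the 6 ob/ob arrays and *Ly6e* on all 9.

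*Ly6e*, an interferon-inducible member, was above the receptor range on all 9 arrays. Its log2 values were 13.69, 14.33 and 13.55 in wild-type vehicle. In ob/ob vehicle they were 15.58, 15.20 and 11.76, and in ob/ob extract 13, 12.22 and 12.12. Ob/ob vehicle 3 was the lowest of all 9 arrays, 3.44 below the nearer of the other vehicle arrays, which were in turn the highest of all 9. The extract arrays were all below the wild-type arrays and overlapped with ob/ob vehicle through that array.

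None of the 3 differences of *Ly6e* passed the test with all arrays. Ob/ob vehicle differed from wild type by 0.32 (SE 0.81, 95% interval -1.47 to 2.12, limma adjusted p = 0.887). Ob/ob extract differed from ob/ob vehicle by -1.73 (SE 0.81, 95% interval -3.53 to 0.06, adjusted p = 0.770) and from wild type by -1.41 (95% interval -3.21 to 0.39, adjusted p = 0.471). The intervals are wide, with a within-group SD of 2.10 in ob/ob vehicle against 0.42 in wild type and 0.48 in ob/ob extract.

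A single array decided the calls of *Ly6e*. Without ob/ob vehicle 3, it was higher in ob/ob vehicle than in wild type by 1.53 (limma adjusted p = 0.0258), lower in extract than in ob/ob vehicle by -2.94 (adjusted p = 0.0266) and lower in extract than in wild type by -1.41 (adjusted p = 0.0435), and all 3 passed. Ob/ob vehicle 3 is in neither group of the last comparison, whose difference was -1.41 with and without it. That call came with the smaller spread shared by all groups, not with a change in the difference. The fit on extract and wild type alone did not call it. With both ob/ob vehicle 3 and wild-type vehicle 3 left out, the values were 1.38, -2.94 and -1.56, again all called. With array weights, which count ob/ob vehicle 3 least, only the difference between extract and ob/ob vehicle was called (-2.71). Leaving out ob/ob vehicle 1 instead turned the first difference to -0.38, and leaving out ob/ob vehicle 2 turned it to -0.19. The difference between extract and ob/ob vehicle stayed below 0 in all 9 fits that left out 1 array, from -2.94 to -1.03. Ob/ob vehicle 3 also had the highest *Lcn2* value, 15.71 against 10.77 and 10.25 on the other vehicle arrays; *Lcn2* encodes lipocalin 2, which hepatocytes and neutrophils release in inflammation. Its part in the *Ly6e* value was not tested.

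**Figure D2:**
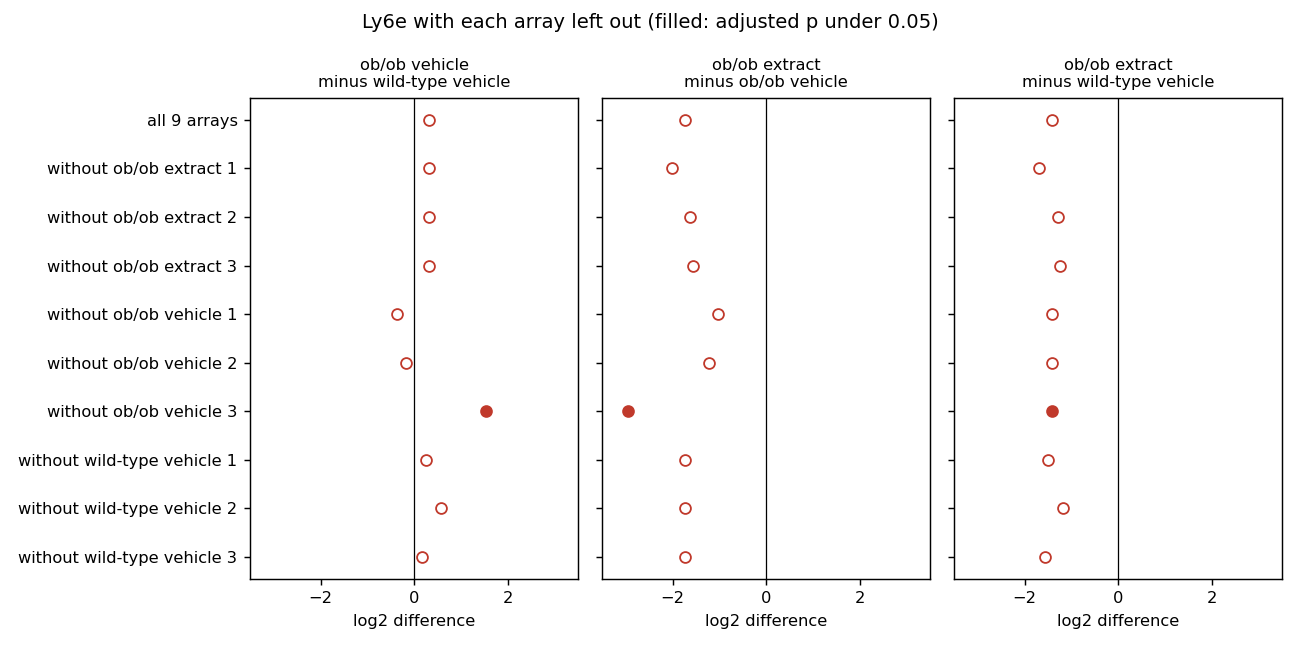
Log2 difference of *Ly6e* in each of the 3 comparisons (horizontal axis) with all 9 arrays and with each array left out (vertical axis), where filled points have an adjusted p under 0.05. Only the fit without ob/ob vehicle 3 has filled points, at 1.53, -2.94 and -1.41.

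*Ly6c1*, 1 of the Ly6C genes, had its highest values in ob/ob vehicle. Its log2 values were 3.86, 4.49 and 4.51 in wild-type vehicle, 5.92, 5.29 and 5.21 in ob/ob vehicle, and 4.09, 4.17 and 4.90 in ob/ob extract. The ob/ob vehicle arrays did not overlap with either other group, whereas extract and wild type overlapped. Only ob/ob vehicle 1 was above the receptor range, so these levels are close to background. The difference was 1.19 (SE 0.32, 95% interval 0.48 to 1.90) between ob/ob vehicle and wild type, with an unadjusted p of 0.00383 in limma and an adjusted p of 0.0844. It was -1.09 (SE 0.32, 95% interval -1.80 to -0.38) between extract and ob/ob vehicle, with an unadjusted p of 0.00653 and an adjusted p of 0.707. Neither passed. The first did pass without ob/ob vehicle 3 (1.32, adjusted p = 0.0470) and without both arrays that stood apart (1.43, adjusted p = 0.0359). Between extract and wild type the difference was 0.10 (95% interval -0.61 to 0.81, adjusted p = 0.922).

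*Ly6c2*, the other Ly6C gene, stayed inside the receptor range on all 9 arrays. Its log2 values were 3.42, 3.36 and 4.33 in wild-type vehicle, 4.78, 3.64 and 4.40 in ob/ob vehicle, and 4.21, 3.94 and 3.79 in ob/ob extract. All groups overlapped. Its differences were 0.57 (95% interval -0.22 to 1.36) for ob/ob vehicle against wild type, -0.29 (-1.08 to 0.50) for extract against ob/ob vehicle and 0.28 (-0.51 to 1.07) for extract against wild type, with limma adjusted p of 0.464, 0.913 and 0.769. Whether the probes of either gene also detect its near copy was not tested.

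*Ly6h*, known from brain, and *Ly6k*, known from testis, were likewise inside the receptor range on all 9 arrays. *Ly6h* read 4.09, 3.74 and 3.79 in wild-type vehicle, 3.63, 3.35 and 3.81 in ob/ob vehicle, and 3.95, 4.05 and 3.77 in ob/ob extract. *Ly6k* read 5.08, 3.93 and 4.40 in wild-type vehicle, 3.72, 4.44 and 4.38 in ob/ob vehicle, and 4.01, 3.81 and 4.17 in ob/ob extract. The groups overlapped in every comparison of both genes. The differences of *Ly6h* ran from -0.28 to 0.33 and those of *Ly6k* from -0.47 to -0.18, with limma adjusted p from 0.550 to 0.948. At these levels a difference could not be detected above the array background.

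**Figure D3:**
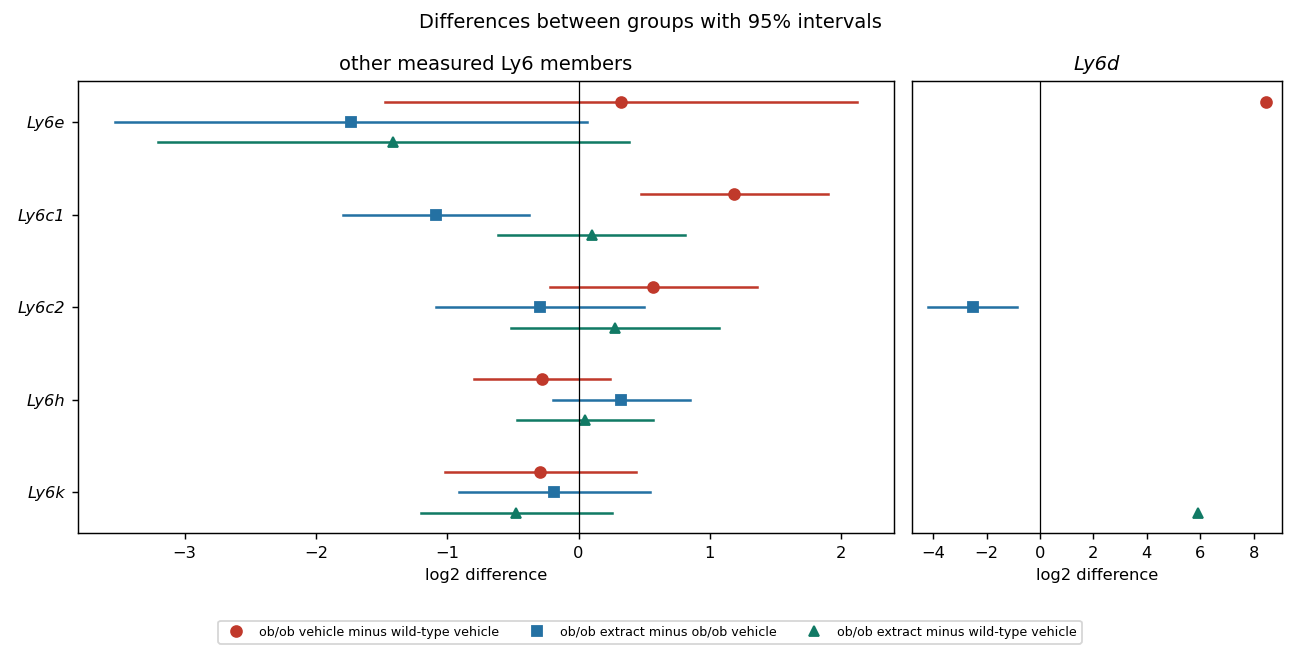
Log2 differences (horizontal axis) of the 6 measured Ly6 genes in the 3 comparisons, with 95% intervals as lines, *Ly6d* in its own panel and scale. The interval is drawn for *Ly6d* only for extract against ob/ob vehicle (-4.18 to -0.85), since the other 2 differences of that gene are given as a description.

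*Ly6d*, whose values chose the set, was left out of the counts of members, so they cover the other 5. Between ob/ob vehicle and wild type, 0 of 5 were called, and 2.96% of all clusters were. By the authors' criterion (unadjusted p under 0.05 and a linear fold over 1.1) 1 of 5 passed, *Ly6c1*, against 17.0% of clusters, and the same gene alone did not overlap between groups, as did 19.5% of clusters. The median difference of these 5 was 0.32, beside -0.06 over all clusters.

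Between extract and ob/ob vehicle, 0 of 5 members and 0.0% of clusters were called, the smallest limma adjusted p over all clusters being 0.593. By the authors' criterion 1 of 5 passed, *Ly6c1*, against 6.45% of clusters, and the same gene alone did not overlap, as did 13.6% of clusters. The median difference of the 5 was -0.29, beside -0.01 over all clusters. Between extract and wild type, 0 of 5 were called (1.29% of clusters), 0 of 5 passed the authors' criterion (14.0%) and 1 of 5, *Ly6e*, did not overlap (21.7%). The median of the 5 was 0.05, beside -0.05 over all clusters. The comparisons share arrays, so their values are not independent of each other.

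Among 17131 genes with a single named symbol, 119 had a Pearson correlation with *Ly6d* over 0.9 over the 9 arrays and 66 one under -0.9. The 9 arrays hold 3 groups, and these correlations carry their differences, so no p is given. The highest correlations were those of *Anxa5*, the membrane-binding annexin A5 (0.98), the lipid droplet protein gene *Cidea* (0.97), the acute phase gene *Orm3* (0.97), the calpain subunit gene *Capns1* (0.96), *Gas6*, a ligand of TAM receptors (0.95), and the ubiquitin ligase gene *Rnf11* (0.95). *Anxa5* read 10.37, 9.90 and 10.31 in wild-type vehicle, 14.28, 13.54 and 14.29 in ob/ob vehicle, and 14.25, 12.80 and 12.21 in ob/ob extract. Like *Ly6d*, it was highest in extract 1 and lowest in extract 3 among the extract arrays, and over the 6 ob/ob arrays its correlation was 0.93. Over the same 6 arrays, which also entered the choice of these genes, it was 0.77 for *Cidea*, 0.74 for *Orm3*, 0.72 for *Capns1*, 0.86 for *Gas6* and 0.80 for *Rnf11*. The lowest were *Sema3a* (-0.98), the axon guidance gene, *Elovl3* (-0.97), a fatty acid elongase, and *C6* (-0.97), a complement component. *Sema3a* read 3.46 to 5.21, inside the receptor range on all 9 arrays, so its correlation is one of background-level readings. *Elovl3* read 15.21, 13.71 and 15.11 in wild-type vehicle, 8.63, 9.96 and 8.40 in ob/ob vehicle, and 8.47, 10.59 and 11.36 in ob/ob extract, and its correlation over the 6 ob/ob arrays was -0.88. Of the other members, *Ly6c1* and *Ly6c2* had correlations with *Ly6d* of 0.55 and 0.50, and *Ly6e*, *Ly6h* and *Ly6k* of -0.02, -0.34 and -0.37.

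**Figure D4:**
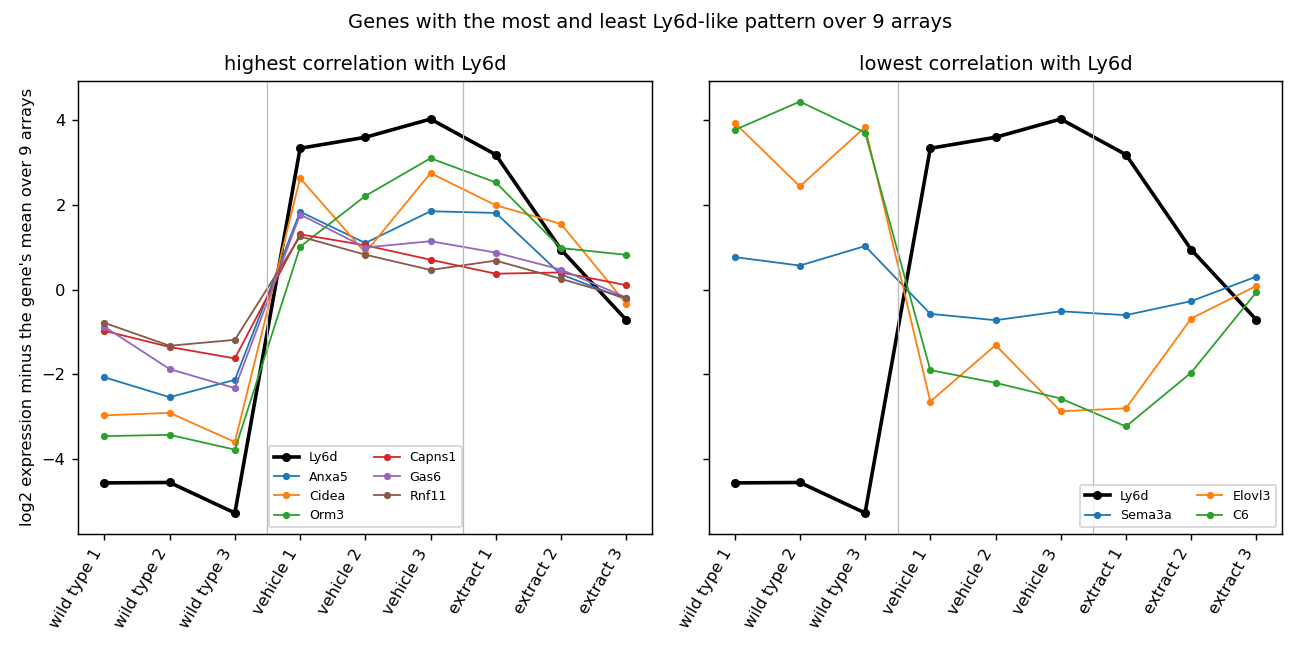
Log2 expression minus each gene's mean over 9 arrays (vertical axis) on each array (horizontal axis), for *Ly6d* in black and the 6 genes most like it (left) or the 3 least like it (right). Lines cross the group borders only to guide the eye. *Ly6d* has the largest swing on the left, and all 3 genes on the right are highest in wild type.

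On chromosome 15, 30 genes run from *Psca* to *Gpihbp1* in RefSeq's order, 7 of them the members, and 21 were measured. Of these 21, 2 were above the receptor range on all 9 arrays, *Ly6e* and *Gpihbp1*, and 15 on none. Apart from *Ly6d*, 0 of the measured genes were called by limma in each of the 3 comparisons, and 1 in each had an unadjusted p under 0.05. Over all clusters, 17.0%, 6.45% and 14.0% had such a p in the 3 comparisons. *Slurp2* and *Lynx1*, the measured genes before *Ly6d* in this order, differed by 0.36 and 0.10 between ob/ob vehicle and wild type, and *Ly6k* and *Gml* after it by -0.29 and 0.16. *Ly6m* and *Ly6i*, beside *Ly6e*, differed by 0.36 and -0.37. Around the Ly6C genes, *Ly6f* differed by -0.04 and the transcribed pseudogene *9030619P08Rik* by 0.88 (unadjusted p = 0.159). The gene below an unadjusted p of 0.05 was this pseudogene in extract against wild type, with a difference of 1.58 (limma unadjusted p = 0.0209, adjusted p = 0.255), and *Ly6c1* in the other comparisons.

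**Figure D5:**
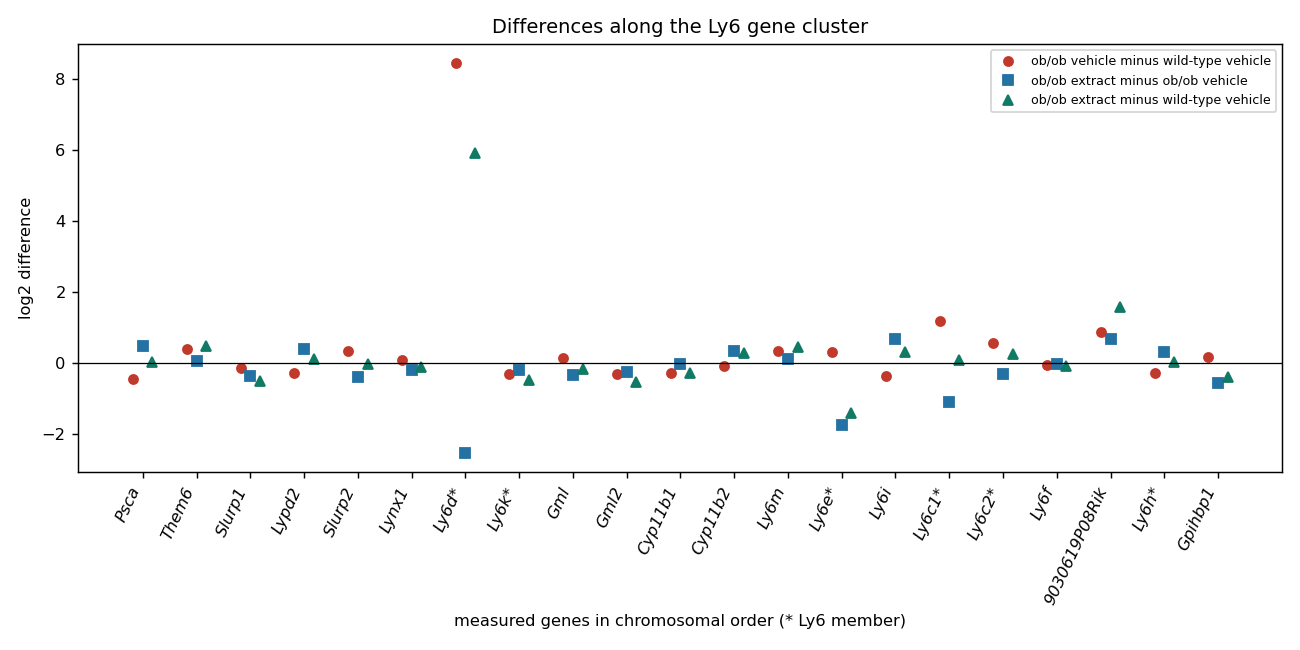
Log2 differences (vertical axis) of the 21 measured genes of the Ly6 gene cluster in chromosomal order (horizontal axis, not to scale; members starred) in the 3 comparisons. *Ly6d* stands at 8.45, -2.51 and 5.94, while its measured neighbours lie within 1 of zero.

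Of 41 other genes of the Ly6 and urokinase receptor family, 38 were measured, 3 were above the receptor range on all 9 arrays and 32 on none. *Cd59a*, which encodes an inhibitor of the complement membrane attack complex, rose by 2.82 (SE 0.52, limma adjusted p = 0.0205) in ob/ob vehicle against wild type. It was the only 1 of the 38 called in any of the 3 comparisons, where 2.96%, 0.0% and 1.29% of all clusters were called. Its log2 values were 10.33, 9.38 and 8.10 in wild-type vehicle, 12.55, 12.21 and 11.52 in ob/ob vehicle, and 10.68, 11.55 and 11.66 in ob/ob extract. The ob/ob vehicle arrays were above the wild-type arrays in every case; the call was lost without ob/ob vehicle 1, ob/ob vehicle 2 or wild-type vehicle 2 (adjusted p 0.0911, 0.0809 and 0.0831). *Cd59b*, the paralogue, differed by 1.66 (adjusted p = 0.126). *Gpihbp1*, which carries lipoprotein lipase across endothelium, differed by -0.54 between extract and ob/ob vehicle (adjusted p = 0.767). The median of the 38 was -0.11, -0.08 and -0.13 in the 3 comparisons.

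Of 30 genes that make and attach the GPI anchor, 28 were measured, and 2 rose in ob/ob vehicle against wild type. The share called over all clusters was 2.96%. By unadjusted p under 0.05, 6 of 28 passed, beside 17.0% of clusters. *Pigp*, a subunit of the enzyme for the first step of anchor synthesis, rose by 2.11 (SE 0.28, limma adjusted p = 0.00501), from 7.27 ± 0.37 (SD, n = 3) to 9.37 ± 0.25 (SD, n = 3). *Pigq*, of the same enzyme, rose by 1.48 (adjusted p = 0.0463), but was above the receptor range on only 2 arrays, and its call was lost without 7 of the 9 arrays taken singly. *Gpld1*, the lipase that cuts the anchor, differed by -1.41 (adjusted p = 0.0752). In extract against wild type *Pigp* rose by 1.85 (adjusted p = 0.0124), a call lost without extract 2 or wild-type vehicle 2 (0.0801 and 0.0657), and against ob/ob vehicle 0 of 28 were called by limma. By unadjusted p under 0.05, 2 of 28 passed in the former (14.0% of clusters) and 3 of 28 in the latter (6.45%). The list's median was 0.35, -0.10 and 0.31 in the 3 comparisons.

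Of 30 interferon-stimulated genes, the kind *Ly6e* belongs to, 28 were measured and 6 were above the receptor range on all 9 arrays. None was called by limma in ob/ob vehicle against wild type or in extract against ob/ob vehicle. By unadjusted p under 0.05, 3 of 28 passed in the former, beside 17.0% of clusters, and 4 of 28 in the latter, beside 6.45%. *Cxcl10*, *Xaf1* and *Ifi27* had the smallest p in the latter, with differences of -0.97, -1.06 and -1.31. Of these, *Cxcl10* was above the receptor range on 0 arrays, *Xaf1* on 3 and *Ifi27* on 9. In extract against wild type *Ifi27*, an interferon-induced gene, fell by 2.47 (SE 0.49, adjusted p = 0.0409), a call lost without any 1 of 6 arrays, and 5 of 28 had an unadjusted p under 0.05, beside 14.0% of clusters. The list's median was -0.12, -0.20 and -0.32 in the 3 comparisons.

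Markers of cell types that carry Ly6 proteins were set beside the members. Of 19 endothelial markers measured, 8 were above the receptor range on all 9 arrays, and 0 were called by limma in any comparison. An unadjusted p under 0.05 was found for 3, 2 and 3 of them, beside 17.0%, 6.45% and 14.0% of all clusters. The summed level of the endothelial markers (log2 of the summed linear values) was 12.00 to 12.55 in wild-type vehicle. It was 11.89 to 12.96 in ob/ob vehicle and 11.97 to 12.30 in ob/ob extract. Of 15 monocyte and dendritic cell markers, 0 were above the range on all arrays and 10 on none, and 0 were called (0, 1 and 1 with an unadjusted p under 0.05). Their summed level was 8.97 to 9.26, 9.32 to 9.50 and 8.92 to 9.35. The ob/ob vehicle arrays were thus above the wild-type arrays in this sum, as they were for *Ly6c1*, and the part of monocytes in the *Ly6c1* values was not tested.

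For *Ly6d*, the lists set beside it were those of B lineage cells and stratified epithelium, the types it is known to mark. Which liver cells its signal came from was not tested. Of 15 B cell markers measured, 11 were above the receptor range on no array, *Cd79b* among them at 3.05 to 3.56, and the summed level was 8.77 to 9.04 in wild-type vehicle, 8.52 to 8.68 in ob/ob vehicle and 8.48 to 8.66 in ob/ob extract. Of 17 markers of stratified epithelium and bladder, 16 were above the range on no array, *Krt5* and *Trp63* among them, and the summed level was 8.0 to 8.45, 7.86 to 8.10 and 7.94 to 8.17. Both sums are made up mostly of background readings, and the part of these cells in the *Ly6d* values was not tested. In any comparison, 0 markers of either list were called by limma. An unadjusted p under 0.05 was found for 2, 0 and 3 B cell markers and for 0, 1 and 0 epithelial markers. Over all clusters the shares were 17.0%, 6.45% and 14.0%.

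Neutrophil, plasmacytoid dendritic cell, T and NK cell and cholangiocyte markers were measured for 15, 8, 16 and 11 genes, *Ly6c2* being 1 of the 8. Only *Lcn2* was called, higher by 7.46 in ob/ob vehicle than in wild type (limma adjusted p = 0.0199), where 2.96% of all clusters were called. Its call was lost without wild-type vehicle 2 or 3 (0.0785 and 0.0727). The summed level of the neutrophil list was 8.51 to 8.91 in wild-type vehicle, 10.54 to 15.72 in ob/ob vehicle and 8.66 to 11.56 in ob/ob extract. *Lcn2* alone read 10.77, 10.25 and 15.71 in ob/ob vehicle, so most of the sum there was this 1 gene. The list's median difference was -0.03 in ob/ob vehicle against wild type. Of the 15, *Lcn2* was above the receptor range on 6 arrays, *S100a9* on 5, *Cxcr2* and *Mpo* on 1 each and the other 11 on none. On ob/ob vehicle 3, *S100a9* read 7.23 and *S100a8* 5.85, each its highest of 9 arrays. The receptor range of that array reached 6.53, higher than on any other except wild-type vehicle 3, so the *S100a8* reading was inside it.

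The hepatocyte list had a median of -0.56 in ob/ob vehicle against wild type, -0.09 in extract against wild type and 0.08 in extract against ob/ob vehicle. By limma 0 of 11 were called, and 4 of 11 had an unadjusted p under 0.05 in the first, beside 17.0% of clusters. On the 3 wild-type arrays 5 of the 11 read the array's highest value, so for these a change could be hidden.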

How the data were processed

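Clariom S arrays of 9 mouse livers were analysed. For every transcript cluster the authors deposited a log2 value per array, with 2 decimals; per the design text they were normalized with SST-RMA in Transcriptome Analysis Console 4.0.2, a step on which all differences depend. The genome build is not given in the sources used here. Symbols came from the platform annotation, and 2634 clusters had none. Gene order and promoters came from RefSeq (GRCm38.p6).

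One mean per group was fitted with limma 3.58.1 (R 4.3.3) over all 22206 clusters of 9 arrays, with a shared spread (6 residual and 4.45 prior degrees of freedom), tested on simulated data beforehand. The authors' detection cutoff was not applied. P-values were adjusted by Benjamini-Hochberg over all clusters.

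The members and gene lists were chosen with earlier results of these data known. Named are all members, every called gene of 12 lists and otherwise up to 3 per list with the smallest p, the 6 highest and 3 lowest correlations with *Ly6d*, and chromosomal neighbours. *Krt5*, *Trp63*, *Cd79b*, *S100a8*, *S100a9*, *Cxcr2*, *Mpo* and, for its value on 1 array, *Lcn2* were named after their values were seen. A list's summed level is log2 of its summed linear values.

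The labels number replicates in each group without saying that numbers mark a shared source. Same-numbered ob/ob vehicle and wild-type arrays deviated together (correlations 0.256, 0.262 and 0.450), and other comparisons did not. Differently numbered arrays of these groups correlated as much (0.260 for ob/ob vehicle 2 with wild type 1, 0.218 for 1 with 2), and the third array of each stood apart. Up to 17 alternatives were tried per result: other normalizations, a filter on low clusters, array weights, other variance models, the replicate block, and arrays left out.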

Additional observations from a re-analysis of the deposited data

How the results depend on the processing

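Of 300 alternatives of the 18 member differences, 281 were rated the same, 10 became called, 8 changed sign and 1 moved in size. The differences of *Ly6d* from wild type were rated by direction and size, the others by direction and call. None of the differences rated by call was called with all arrays, so a lost call was not possible. Changes of sign beyond those given for *Ly6e* were -0.093 for *Ly6e* (ob/ob vehicle against wild type) under quantile normalization, 0.015 for *Ly6k* in that comparison without wild-type vehicle 1 (range over single arrays left out -0.56 to 0.015), and, in extract against wild type, -0.16 and -0.11 for *Ly6c1* without extract 3 or wild-type vehicle 1 (range -0.16 to 0.25) and -0.013 and -0.017 for *Ly6h* without extract 2 or wild-type vehicle 2 (range -0.017 to 0.16). *Ly6e* in ob/ob vehicle against wild type ran from -0.38 to 1.53 over single arrays left out. *Ly6d* in that comparison moved to 8.02 without both arrays that stood apart. Leaving out the lowest 30% of clusters removed *Ly6c2* and *Ly6h*.

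*Ly6d*, which chose the set, is left out of the member calls given next. Comparisons are in the order ob/ob vehicle against wild type, extract against ob/ob vehicle, extract against wild type. With all arrays, 0 of the other 5 members were called in each. With array weights, *Ly6c1* was called in the first and *Ly6e* in the second. Without both arrays that stood apart, *Ly6c1* and *Ly6e* were called in the first and *Ly6e* alone in the others. Among the fits that left out a single array, only the fit without ob/ob vehicle 3 called any, and those were the same. Clusters called were 658, 0 and 287; array weights gave 2137, 106 and 796, leaving out both arrays 1745, 360 and 595, and single arrays 147 to 1679, 0 to 51 and 77 to 598. Only the 2 groups compared gave 207 for the first. Quantile normalization moved its split of 507 higher and 151 lower to 290 and 256, and that of the third from 217 and 70 to 153 and 97. The replicate block gave 579, 0 and 283 clusters and changed no member's call. Beyond arrays left out, where fewer samples enter the fit, the cause was not tested. Signal over background limits *Ly6c1*, *Ly6c2*, *Ly6h*, *Ly6k* and the wild-type values of *Ly6d*.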
